A study of Drosophila melanogaster with 42 samples.

Results

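The 58 regions described here were the members of a Drosophila melanogaster candidate enhancer library whose names begin with DHS_FC_ (49 regions) or DHS_FCM_ (9 regions), out of 491 regions in all. They were chosen by name alone. DHS is the usual abbreviation for a DNase-hypersensitive site, but the labels spell out neither DHS nor FC and FCM, and no DNase measurement was used here, so the name groups are kept as the files give them. The assay sorted embryonic cells that carry an integrated candidate region with a GFP reporter, amplified the inserts from their genomic DNA and sequenced them. A region that drives GFP in a cell population is then expected to take a larger share of the inserts in GFP+ cells than in the input cells sorted without regard to GFP.

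Embryos came from males of the transgenic pool crossed to females with a cell-type-specific CD2 transgene, in which rat CD2 on the cell surface marks the cells of the driver. They were collected for 2 to 2.5 hours at 25 degrees, aged for 9 to 10 hours at 18 degrees, and dissociated. With the twi driver, 3 twi-CD2+/GFP+ libraries (100783 to 111875 cells) were set against 3 twi-CD2+ inputs, and 3 twi-CD2-/GFP+ libraries (63849 to 66845 cells) against 3 twi-CD2- inputs, each input holding 100000 or 200000 cells. With the mef2 driver, 3 mef2-CD2-/GFP+ libraries (94473 to 138635 cells) were set against 3 mef2-CD2- inputs of 200000 cells, and 1 pooled mef2-CD2+/GFP+ library of 16163 cells against 5 smaller mef2-CD2- inputs of 20048 to 32326 cells. With the duf driver, 6 duf:CD2-/GFP+ libraries (36206 to 55331 cells) were set against 6 duf:CD2- inputs of 200000 cells, and 1 pooled duf:CD2+/GFP+ library of 20015 cells against 5 smaller duf:CD2- inputs of 39668 cells each. The CD2 and GFP sorts are therefore joined in the comparisons of both pooled CD2+/GFP+ libraries, whose controls were CD2- cells. Each of the 42 libraries held 15601850 to 30671354 reads over the 491 regions, and 3 reads, the limit that a count of 0 allows, corresponded to 0.0978 to 0.192 counts per 1000000 reads (CPM). These limits cover counting error only, since the inserts were amplified by PCR without molecular identifiers.

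In the fly embryo, body wall muscles form when founder cells, which set the identity of each muscle, fuse with fusion-competent myoblasts. Founder cells express duf, also called kirre, whose product attracts myoblasts, while twi marks the mesoderm from early on and Mef2 marks differentiating muscle. DNase hypersensitivity marks open chromatin, which active enhancers usually show, although open chromatin also covers promoters, insulators and silenced elements.

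The DHS_FC regions were 910 to 1100 bp long with a median of 1021 bp, and the DHS_FCM regions were 902 to 1098 bp long with a median of 1034 bp. Their median GC contents were 42.2% and 42.8%, beside 42.3% over all 491 regions. The widest spread was within DHS_FC, from 31.7% to 62.1%, and DHS_FC_5 had the highest GC content in the library. All coordinates are those of the deposited files, in build dm3. The DHS_FC regions lay on 2L (13 regions), 2R (8), 3L (14), 3R (7) and X (7), and the DHS_FCM regions on 2L (3), 2R (2) and 3L (4). The files give no gene for these regions, so whether they are exonic, intronic or intergenic is not given here.

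Many members were neighbours of each other. With gaps of at most 10 kb, 39 of the 58 members fell into 14 groups. The largest held 7 DHS_FC regions on 3L between 12779015 and 12797319, among them DHS_FC_5, DHS_FC_30 and DHS_FC_8, and the next held 5 DHS_FC regions on 2L between 10002216 and 10009735. The DHS_FCM regions formed a chain of 3 on 2L between 132276 and 134898 (DHS_FCM_1, DHS_FCM_2 and DHS_FCM_3) and neighbouring pairs on 2R (DHS_FCM_4 and DHS_FCM_5, 43 bp apart) and 3L (DHS_FCM_6 and DHS_FCM_7, 3215 bp apart). In all, 15 members shared bases with another candidate region. The longest overlaps were 638 bp between DHS_FC_14 and CBP5342, 492 bp between DHS_FC_18 and CBP5825, and 461 bp between DHS_FC_30 and DHS_FC_8. DHS_FC_4 and DHS_FC_49 shared 356 bp, DHS_FCM_2 shared 294 bp with DHS_FCM_3 and 112 bp with DHS_FCM_1, and 3 further pairs (DHS_FC_27 and DHS_FC_32, DHS_FC_2 and DHS_FC_45, DHS_FC_20 and DHS_FC_31) shared 20 to 39 bp. Reads from a shared stretch cannot be told apart by position alone, and overlapping regions are not independent members. Spacing and overlaps among the other regions of the library were not counted, so neither is shown to be particular to the members.

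The libraries with reads of a member differed between the drivers. Counting a region as clearly present in a library with at least 100 reads, 50 of the 58 members were present in 1 or more libraries. All 9 DHS_FCM regions were among them. The 8 others were DHS_FC regions: DHS_FC_11, DHS_FC_31, DHS_FC_34 and DHS_FC_38 had no read in any library, and DHS_FC_14, DHS_FC_18, DHS_FC_22 and DHS_FC_47 never reached 100 reads. Nothing can be said of the activity of these 8 regions.

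Of the 50 present members, 24 reached 100 reads only in duf libraries, 20 of them DHS_FC and 4 of them DHS_FCM (DHS_FCM_3, DHS_FCM_4, DHS_FCM_7 and DHS_FCM_8). Of those 24 members, 20 had 0 reads in every twi and mef2 library. A further 23 members were present in duf and in twi or mef2 libraries, and 3 only in twi or mef2 libraries: DHS_FC_7, DHS_FC_20 and DHS_FCM_6. DHS_FCM_6 had 0 reads in all duf libraries, while its neighbour DHS_FCM_7 had 0 reads in all twi and mef2 libraries. DHS_FC_15 and DHS_FCM_2 were the members with at least 100 reads in all 42 libraries. The pool of flies, the driver and the time of the experiment cannot be told apart in this pattern. The share of all regions that reached 100 reads only in duf libraries was not counted. The pattern is therefore not shown to be particular to the members.

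Over the whole library, too, more regions were present in the duf inputs than in the inputs of the other drivers. All inputs of the twi driver held at least 100 reads of 12 of the 49 DHS_FC regions and 3 of the 9 DHS_FCM regions, beside 133 of all 491 regions. For the mef2 driver these counts were 10 and 2, beside 96, and for the duf driver 19 and 6, beside 199. The rule was not equally strict, since the drivers had 6 (twi), 8 (mef2) and 11 (duf) inputs, with the smaller ones included. With at least 100 reads in any input, the counts were 20 and 5 for twi, beside 206 of all regions. They were 20 and 5, beside 221, for mef2, and 39 and 8, beside 426, for duf. The order of twi and mef2 thus depended on the rule.

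Where reads fell within a region differed among members. Over the 50 members with at least 1000 reads in all libraries together, a median of 23.8% of the reads lay at the start or end of the region, close to the 23.3% over the 444 regions of the library with that many reads. In DHS_FC_20, DHS_FC_36, DHS_FC_39 and DHS_FC_43 this share was between 99.9% and 100%, so that nearly all of their reads came from the ends. Such regions made up 8% of those 50 members and 2.93% of the 444 regions (13 regions with a share of at least 99%). Values of these 4 members below therefore rest on end reads. DHS_FC_20 in the twi libraries had 5447 reads at its start and 4 at its end.

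As a group, the members took a smaller mean share of the reads in GFP+ cells than in input cells in each of the 6 populations. In twi-CD2+ cells the DHS_FC regions held 2.11% ± 0.506 of the reads of GFP+ libraries and 8.63% ± 0.0425 of input libraries (SD, n = 3 each). The DHS_FCM regions held 0.744% ± 0.133 and 1.79% ± 0.387. Neither name group overlapped between GFP+ and input libraries there. In twi-CD2- cells the DHS_FC shares were 2.81% ± 1.73 and 8.96% ± 0.377, and the DHS_FCM shares 0.717% ± 0.647 and 1.30% ± 0.0458 (SD, n = 3 each). The DHS_FCM shares of the twi-CD2- libraries overlapped, since the GFP+ libraries held 0.00676%, 0.873% and 1.27% and the inputs 1.25% to 1.33%.

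In mef2-CD2- cells the DHS_FC share was 4.17% ± 1.29 in GFP+ and 16.3% ± 2.00 in input libraries, and the DHS_FCM share 0.221% ± 0.0530 and 1.42% ± 0.622 (SD, n = 3 each). In duf:CD2- cells the DHS_FC share was 1.98% ± 0.413 in GFP+ and 8.21% ± 1.07 in input libraries, and the DHS_FCM share 0.958% ± 0.252 and 2.12% ± 0.225 (SD, n = 6 each). Neither name group overlapped between GFP+ and input libraries in these populations. The single mef2-CD2+/GFP+ library held 7.26% DHS_FC and 1.52% DHS_FCM reads, and the 5 smaller inputs held 8.97% to 26.0% and 0.722% to 3.74%, so that its DHS_FCM share lay within the inputs. The single duf:CD2+/GFP+ library held 4.46% and 1.06%, below the 6.13% to 10.7% and 2.30% to 3.18% of its 5 inputs. These are shares of one total, and no test was run on them. Shares of the other kinds of region were not computed, so a smaller share in GFP+ cells is not shown to be particular to the members.

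The share of single members went the same way. In CPM, 22 of the 23 members with at least 100 reads in a library of the twi-CD2+ comparison had a lower mean in GFP+ cells, beside 77.4% of all regions with that many reads. The counts were 24 of 25 members in twi-CD2- (77.6% of all regions), 21 of 22 in mef2-CD2- (82.3%) and 44 of 47 in duf:CD2- cells (84.5%). For the single CD2+/GFP+ libraries they were 15 of 23 members with the mef2 driver (70.4% of all regions) and 35 of 46 with the duf driver (71.5%). Most regions of the library were thus lower in GFP+ libraries on this scale, members or not. Some members are said below to be separated, or without overlap, in CPM. The share of all regions separated in CPM was not counted, so such a separation is not shown to be particular to a member. DHS_FC_33 was the single exception in both twi populations and in mef2-CD2- cells. DHS_FC_19, DHS_FC_30 and DHS_FCM_4 were the exceptions in duf:CD2- cells.

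To compare members with the bulk of regions, counts were fitted for all regions with edgeR's quasi-likelihood test after TMM normalization. TMM is meant to align the typical region of 2 libraries. Benjamini-Hochberg adjustment covered all regions tested, with a threshold of 0.05. Log2 changes below are on this scale, GFP+ over input. With total reads as the scale instead, the log2 change of each region moved. The median move over all regions tested was -1.61 (twi-CD2+), -1.30 (twi-CD2-), 0.04 (mef2-CD2+), -1.57 (mef2-CD2-), -0.53 (duf:CD2+) and -2.07 (duf:CD2-). Directions given on the TMM scale are therefore relative to that scale, which was not centred on the median region in every comparison. The median log2 change over all regions tested was -0.51 (twi-CD2+), -0.29 (twi-CD2-), -2.29 (mef2-CD2+), -0.41 (mef2-CD2-), -0.72 (duf:CD2+) and -0.07 (duf:CD2-). In mef2-CD2+ cells 156 of 230 regions had a negative change, so a change near 0 there was above that of most regions. The labels do not say whether replicates came from separate collections, so the p-values rest on a spread between libraries that may be technical only. That spread was wide, with a biological coefficient of variation between 139% and 179%.

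The comparison with most libraries was that of duf:CD2-/GFP+ cells with duf:CD2- input. It asks which regions were active in cells outside the duf domain. Of 47 members tested, 3 were higher in GFP+ cells and 0 lower: DHS_FCM_4, DHS_FC_19 and DHS_FC_30. They made up 6.38% of the members tested, beside 11.8% called higher and 1.25% called lower among all 400 regions tested. Before adjustment, 3 members were higher and 2 lower at p under 0.05 in edgeR, beside 17.2% of all regions in either direction. DESeq2 also called 3 members higher, and 1 lower, after adjustment, beside 14.5% and 1.5% of all regions. The median log2 change was -0.47 over the DHS_FC regions tested and 0.11 over the DHS_FCM regions tested, beside -0.07 over all regions.

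DHS_FCM_4 lies on 2R from 20955489 to 20956528 and is 1040 bp long. Its lowest, median and highest levels were 3399, 4792 and 7726 CPM over the 6 GFP+ libraries and 999, 2387 and 5861 CPM over the 6 inputs. The groups overlapped in CPM, through the highest input, but every GFP+ library lay above every input after TMM scaling. The log2 change was 3.03 ± 0.51 (SE, edgeR, adjusted p = 0.000455). It was 0.96 with total reads as the scale (adjusted p = 0.137).

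DHS_FC_19 lies on 2R from 21086761 to 21087857 and is 1097 bp long. Its lowest, median and highest levels were 555, 4837 and 8808 CPM over the GFP+ libraries and 704, 1848 and 4566 CPM over the inputs. The groups overlapped on both scales, because GFP+ replicate 3 had the level of 555 CPM. The log2 change was 3.05 ± 0.62 (SE, edgeR, adjusted p = 0.00223), and 1.05 with total reads as the scale (adjusted p = 0.188).

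DHS_FC_30 lies on 3L from 12794411 to 12795502 and is 1092 bp long. Its lowest, median and highest levels were 561, 768 and 2341 CPM over the GFP+ libraries and 0.398, 289 and 467 CPM over the inputs. The groups did not overlap in CPM or after TMM scaling, and the input at 0.398 CPM was replicate 4. The log2 change was 3.95 ± 1.07 (SE, edgeR, adjusted p = 0.0186), and 1.84 with total reads as the scale (adjusted p = 0.206). Among all regions, 7.75% had every GFP+ library above every input after TMM scaling, beside 2 of the 47 members (DHS_FCM_4 and DHS_FC_30). No member had every GFP+ library below every input, beside 1.5% of all regions.

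The call of DHS_FC_30 rested on single libraries. Its adjusted p in edgeR was 0.0619 without GFP+ replicate 1, and 0.0515, 0.0529 and 0.0560 without input replicates 2, 3 and 5. Same-numbered duf:CD2- libraries deviated together, and with the replicate number as a block the adjusted p of DHS_FC_30 was 0.0707 at a log2 change of 4.14, while DHS_FCM_4 and DHS_FC_19 stayed under the threshold.

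The labels also give the sequencing lane of the duf libraries. With the lane as a block none of the 3 members passed the threshold in edgeR: the log2 changes were 3.58 for DHS_FCM_4 (adjusted p = 0.105), 3.00 for DHS_FC_19 (adjusted p = 0.214) and 4.15 for DHS_FC_30 (adjusted p = 0.324). Only lanes 1 and 8 held both groups. In lane 1, the GFP+ library and the input had 7726 and 999 CPM of DHS_FCM_4, 6060 and 1768 CPM of DHS_FC_19, and 850 and 467 CPM of DHS_FC_30. In lane 8, the GFP+ library had 4911 CPM of DHS_FCM_4, between its 2 inputs at 2076 and 5861 CPM. It had 4813 CPM of DHS_FC_19 and 2341 CPM of DHS_FC_30, above the inputs at 3529 to 4566 CPM and 247 to 376 CPM.

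No region given here as a neighbour of the 3 called members was itself called in duf:CD2- cells. DHS_FC_16, 901 bp from DHS_FC_30, had a positive log2 change of 0.99 ± 1.42 (SE, edgeR, adjusted p = 0.940). In the lone duf:CD2+/GFP+ library DHS_FC_16 lay above every input after TMM scaling (log2 change 1.69), as did DHS_FC_30, beside 17.4% of all regions. The other neighbours had lower mean CPM in GFP+ than in input libraries, unlike the called members. DHS_FCM_5, 43 bp from DHS_FCM_4, had 1202 ± 1183 CPM in duf:CD2-/GFP+ and 4518 ± 1967 CPM in input libraries (SD, n = 6 each), with a log2 change of 0.16 ± 0.92 on the TMM scale (SE, edgeR, adjusted p = 0.977). DHS_FC_8, which shares 461 bp with DHS_FC_30, had 449.7 ± 464 CPM and 2077 ± 464 CPM, with a log2 change of -0.20 ± 1.18 (SE, edgeR, adjusted p = 0.977). The share of reads at the region ends was 21.8% for DHS_FC_30 and 28.2% for DHS_FC_8 in duf libraries, and with end reads only the log2 change of DHS_FC_30 was 3.90 (edgeR, adjusted p = 0.0200). CBP5827, 70 bp from DHS_FC_19, had 447 ± 397 CPM in GFP+ and 2730 ± 1688 CPM in input libraries, with a log2 change of -0.63 ± 1.03 (SE, edgeR, adjusted p = 0.940). The difference between neighbours was not itself tested.

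No other member passed the threshold in duf:CD2- cells. The most negative log2 changes were those of DHS_FCM_9, at -2.93 ± 1.31 (SE, edgeR, adjusted p = 0.238), and DHS_FC_12, at -2.79 ± 1.31 (SE, edgeR, adjusted p = 0.286). DHS_FCM_9 had a lowest, median and highest level of 0.352, 20.4 and 152 CPM in GFP+ libraries and 534, 1605 and 2382 CPM in inputs. In CPM its groups did not overlap. DHS_FC_12 had 3.88, 5.27 and 432 CPM in GFP+ libraries and 1030, 2088 and 7728 CPM in inputs, again without overlap in CPM. On the total-read scale 13 of the 47 members (27.7%) were lower and 0 higher in edgeR, among them both of these, beside 23.8% and 5.5% of all regions.

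The single duf:CD2+/GFP+ library holds the founder-cell side of the duf sort. None of the 47 members tested passed the threshold, beside 0.235% of all regions called higher and 0% called lower. Without adjustment edgeR had 2 members lower at p under 0.05, beside 7.06% of all regions in either direction. DESeq2 called 7 members lower (14.9%) and 0 higher after adjustment, beside 16.7% and 2.12% of all regions. The 7 were DHS_FCM_1, DHS_FCM_7, DHS_FC_5, DHS_FC_8, DHS_FC_15, DHS_FC_25 and DHS_FC_43. In this fit the spread of the lone library was taken to be that of the inputs. After TMM scaling it lay above all 5 inputs for 6 members and below all 5 for 12, beside 17.4% and 17.9% of all regions.

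In that library DHS_FCM_4 stood at 4486 CPM, and the 5 inputs at 1772, 2212, 2409, 3357 and 4452 CPM. DHS_FC_30 stood at 1954 CPM, against 0.256, 0.327, 388, 547 and 1081 CPM. Both were above every input, with log2 changes of 1.19 ± 1.11 and 2.80 ± 3.09 (SE, edgeR, adjusted p = 0.796 and 0.828). DHS_FC_19 went the other way, at 89.7 CPM against 581, 749, 1438, 1747 and 2978 CPM, below every input (log2 change -3.54 ± 2.83, SE, edgeR, adjusted p = 0.796).

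DHS_FC_10 had the highest level of any member in duf:CD2+/GFP+ cells, at 6738 CPM against 1.75, 583, 901, 1512 and 2475 CPM in the inputs. Its log2 change was 3.18 ± 1.95 (SE, edgeR, adjusted p = 0.781). DHS_FC_42, at 1366 CPM against 0.0573, 0.256, 1.36, 99.3 and 660 CPM, had the most positive fitted change of the members, 3.73 ± 3.52 (SE, edgeR, adjusted p = 0.796). Both lay above every input, and neither passed the threshold.

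At the other end, DHS_FC_8 was at 1.41 CPM against 1013, 2491, 3159, 3859 and 6169 CPM in the inputs, with a log2 change of -10.65 ± 2.84 (SE, edgeR, adjusted p = 0.186). DHS_FC_5 had 1 read in the duf:CD2+/GFP+ library and 39379 reads over the 5 inputs, a CPM ratio of input to GFP+ of 9460 for which the exact 95% interval from counting alone ran from 1698 to 373655. Its inputs nevertheless overlapped the GFP+ library after TMM scaling, since they ranged from 0.0518 to 1087 CPM. DHS_FCM_1 had 4 reads there, or 0.182 CPM, against 1.15, 123, 1338, 4530 and 5369 CPM (log2 change -13.03 ± 5.99, SE, edgeR, adjusted p = 0.674).

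In twi-CD2+ cells, the mesoderm of the twi driver, 23 members were tested and none passed the threshold, beside 5.13% of all 195 regions called higher and 0% called lower. Before adjustment edgeR had 1 member lower at p under 0.05 (DHS_FC_7), beside 13.3% of all regions in either direction. After adjustment DESeq2 called 3 members lower (DHS_FC_7, DHS_FC_21 and DHS_FCM_1) and 0 higher, beside 5.64% and 6.67% of all regions. The median log2 change of the members was -0.90, beside -0.51 over all regions. DHS_FC_7 had 0, 0 and 0.13 CPM in the GFP+ libraries, 3 reads in all, and 29.0, 2678 and 3238 CPM in the inputs. No GFP+ library reached an input. DHS_FC_7 and DHS_FC_40 were the 2 members below every input after TMM scaling, beside 16.9% of all regions. For DHS_FC_7 the CPM ratio of input to GFP+ was 41238 with a counting interval of 14111 to 199966. Its edgeR adjusted p was 0.130.

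DHS_FC_21 had 0, 0 and 1.48 CPM in twi-CD2+/GFP+ libraries and 2.10, 237 and 3932 CPM in inputs (log2 change -9.57 ± 4.42, SE, edgeR, adjusted p = 0.404). DHS_FC_32 was among the most abundant members there, at 2688, 4325 and 6974 CPM in GFP+ and 8518, 9365 and 12961 CPM in input libraries. Both were lower in every GFP+ library than in any input in CPM, and neither was separated on the TMM scale.

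DHS_FC_33 had the most positive log2 change in twi-CD2+ cells, 2.79 ± 1.46 (SE, edgeR, adjusted p = 0.498), at 279, 3682 and 4169 CPM in GFP+ and 659, 1125 and 1731 CPM in input libraries. The groups overlapped through GFP+ replicate 1. DHS_FCM_6 lay above every input after TMM scaling, one of 11.3% of all regions to do so, with a log2 change of 1.39 ± 0.96 (SE, edgeR, adjusted p = 0.665). In CPM its GFP+ libraries (3220, 5998 and 7187) overlapped its inputs (1300, 7329 and 9536), and on the total-read scale the log2 change was -0.15.

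In twi-CD2- cells 25 members were tested and again none passed the threshold, beside 2.94% of all 204 regions called higher and 0% called lower. At an unadjusted p under 0.05 edgeR found 5 members lower and 0 higher (20% of those tested), beside 13.7% of all regions in either direction. After adjustment DESeq2 called 4 members lower (DHS_FC_17, DHS_FC_20, DHS_FC_49 and DHS_FCM_5) and 0 higher, beside 4.41% and 5.88% of all regions. After TMM scaling 9 of the 25 members had every GFP+ library below every input, beside 17.6% of all regions, and 1 had every GFP+ library above, beside 8.33%. The 9 were DHS_FC_13, DHS_FC_17, DHS_FC_20, DHS_FC_40, DHS_FC_43, DHS_FC_45, DHS_FC_49, DHS_FCM_5 and DHS_FCM_9.

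DHS_FC_20 had no read in the 3 twi-CD2-/GFP+ libraries and 26.9, 37.6 and 55.6 CPM in the inputs. Against a limit of 3 reads over the group it was at least 810-fold lower, and its edgeR adjusted p was 0.0947. DHS_FC_17 had 0, 0 and 0.378 CPM in GFP+ libraries and 293, 458 and 573 CPM in inputs (log2 change -10.45 ± 3.27, SE, edgeR, adjusted p = 0.201). DHS_FC_45 had 0.572, 17.9 and 81.0 CPM in GFP+ libraries and 1683, 2347 and 4412 CPM in inputs. These 3 members were separated in CPM too.

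DHS_FC_32 was the one member above every twi-CD2- input after TMM scaling, with a log2 change of 1.16 ± 0.82 (SE, edgeR, adjusted p = 0.749). In CPM its 3 GFP+ libraries held 6819, 7235 and 9806 and its inputs 7472, 8921 and 10140, so the groups overlapped, and the change was -0.15 on the total-read scale. DHS_FC_33 had 11.4, 4313 and 7635 CPM in GFP+ libraries and 2965, 3527 and 3913 CPM in inputs. Its GFP+ libraries spanned both sides of the inputs.

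In mef2-CD2- cells 21 members were tested and none passed the threshold, beside 5.46% of all 183 regions called higher and 3.83% called lower. Unadjusted, edgeR had 1 member higher at p under 0.05 (DHS_FC_33), beside 24% of all regions in either direction. DESeq2 called 2 members lower (DHS_FC_28 and DHS_FC_43) and 0 higher after adjustment, beside 13.1% and 16.4% of all regions. The median log2 change of the members, -0.42, was near the -0.41 of all regions. DHS_FC_33 had 2.07, 5.89 and 2888 CPM in GFP+ libraries and 0.465, 1.65 and 2.66 CPM in inputs. It lay above every input after TMM scaling, beside 13.7% of all regions, but overlapped the inputs in CPM and took its mean from GFP+ replicate 3. Its log2 change was 10.56 ± 3.75 (SE, edgeR, adjusted p = 0.130), and leaving out 1 library at a time it ran from 3.14 to 11.70.

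Members below every input in mef2-CD2- cells after TMM scaling were DHS_FC_1, DHS_FC_36, DHS_FC_37, DHS_FC_43 and DHS_FCM_2, beside 21.9% of all regions. DHS_FC_37 had 2762, 3166 and 8691 CPM in GFP+ libraries and 28787, 32395 and 32414 CPM in inputs. DHS_FCM_2 had 22.4, 23.8 and 995 CPM in GFP+ libraries and 3188, 7786 and 9879 CPM in inputs. DHS_FC_13 was at 23113, 23840 and 24510 CPM in these inputs and at 3449, 6000 and 8725 CPM in GFP+ libraries. It was separated in CPM but not on the TMM scale. DHS_FC_32 had 4577, 7078 and 7420 CPM in GFP+ and 16550, 16939 and 19048 CPM in input libraries, with a log2 change of 0.13 ± 0.62 (SE, edgeR, adjusted p = 0.974), and was likewise separated in CPM only.

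The most negative fitted changes in mef2-CD2- cells were those of DHS_FC_49 and DHS_FC_28. DHS_FC_49 had 0, 0 and 1.26 CPM in GFP+ and 2.74, 3.25 and 1616 CPM in input libraries (-8.78 ± 4.14, SE, edgeR, adjusted p = 0.243), and DHS_FC_28 had 0, 1.36 and 2.35 CPM and 0, 1441 and 1583 CPM (-8.11 ± 3.96, SE, edgeR, adjusted p = 0.266). In each 1 input or more stood far from the others, and the groups overlapped on the TMM scale. DHS_FC_12, at 0, 1.18 and 4.13 CPM against 0.827, 1.33 and 2.27 CPM, had a positive change of 1.83 ± 1.65 (SE, edgeR, adjusted p = 0.652) at a level of few reads.

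For the single mef2-CD2+/GFP+ library 26 members were tested and none passed the threshold, beside 0% of all 230 regions called in either direction. At an unadjusted p under 0.05 edgeR found 3 members lower (DHS_FC_13, DHS_FC_32 and DHS_FC_37), beside 6.96% of all regions in either direction, and DESeq2 called 0 members and 0% of all regions after adjustment. Here too the spread was taken from the inputs. The members' median log2 change was -0.43, beside -2.29 over all regions.

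DHS_FC_13 was at 207 CPM in mef2-CD2+/GFP+ cells, against 5919, 12477, 22509, 24632 and 25751 CPM in the inputs. DHS_FC_32 was at 375 CPM, against 12048, 13610, 22372, 29936 and 39598 CPM. DHS_FC_37 was at 256 CPM, against 11788, 13825, 20507, 25370 and 26144 CPM. Each lay below all 5 inputs, with log2 changes of -6.57, -6.00 and -6.31 (edgeR). They were among 6 of the 26 members tested (23.1%) that lay below all 5 inputs after TMM scaling, beside 12.6% of all regions. The others were DHS_FC_9, DHS_FC_33 and DHS_FCM_6. With the 3 larger mef2-CD2- inputs added to the controls, 3 members (11.5%) were called lower by edgeR, beside 2.6% of all regions.

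The fitted extremes in mef2-CD2+ cells came from members whose inputs disagreed. DHS_FCM_5 was at 4.42 CPM against 0, 9.35, 13.5, 15.9 and 9671 CPM (log2 change -8.93 ± 8.62, SE, edgeR, adjusted p = 0.859), and DHS_FC_10 at 22.4 CPM against 10.7, 27.1, 186, 186 and 18789 CPM (-7.43 ± 6.65, adjusted p = 0.859). Both overlapped their inputs. DHS_FCM_9, at 22.3 CPM against 0, 4.85, 5.22, 8.48 and 16.2 CPM, was above all 5 inputs (1.66 ± 2.40, SE, edgeR, adjusted p = 0.859), as was DHS_FC_49, beside 13.5% of all regions after TMM scaling. DHS_FC_7, at 24.6 CPM against 0, 0, 4.02, 11.5 and 27.5 CPM, overlapped its inputs (edgeR, adjusted p = 0.915). DHS_FC_45 was abundant in the mef2-CD2+/GFP+ library, at 16204 CPM, within inputs of 14.1 to 26941 CPM.

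DHS_FC_15 was the most abundant member in the inputs of the twi and mef2 drivers. It lies on 2R from 16486173 to 16487235. In twi-CD2+ cells it had 5493, 6425 and 11074 CPM in GFP+ and 32409, 36902 and 39905 CPM in input libraries, and in twi-CD2- cells 293, 10171 and 12192 CPM and 29760, 31618 and 43200 CPM. In mef2-CD2- cells it had 8802, 13254 and 18417 CPM in GFP+ and 42807, 46620 and 58857 CPM in input libraries. All 3 comparisons were separated in CPM, yet the log2 changes on the TMM scale were -0.58 ± 0.58, -0.92 ± 1.05 and -0.32 ± 0.41 (SE, edgeR), with adjusted p of 0.781, 0.908 and 0.805.

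The mef2-CD2+/GFP+ library held 48312 CPM of DHS_FC_15, within its inputs, which ranged from 5676 to 81966 CPM. In the 6 duf:CD2- inputs the level was 1620 to 3553 CPM. The duf:CD2+/GFP+ library held 8.62 CPM, against 61.5 to 5666 CPM in its 5 inputs (log2 change -7.81 ± 3.46, SE, edgeR, adjusted p = 0.674). CBP5467, 757 bp away, passed the threshold as higher in twi-CD2-/GFP+ cells (log2 change 3.44 ± 0.52, SE, edgeR, adjusted p = 0.00556) and in duf:CD2-/GFP+ cells (2.89 ± 0.63, SE, edgeR, adjusted p = 0.00393), where DHS_FC_15 did not.

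The other DHS_FCM regions were described by the same values. DHS_FCM_2, present in all libraries, had 25.7, 1935 and 2705 CPM in twi-CD2+/GFP+ and 6169, 9567 and 13177 CPM in input libraries. In duf:CD2- cells it had a lowest, median and highest level of 144, 1124 and 1525 CPM in GFP+ and 2369, 3614 and 4906 CPM in input libraries. Both comparisons were separated in CPM and overlapped on the TMM scale, with log2 changes of -0.85 ± 1.45 and 0.28 ± 0.57 (SE, edgeR, adjusted p = 0.841 and 0.940).

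DHS_FCM_7 and DHS_FCM_3 reached 100 reads only in duf libraries and were separated in CPM in duf:CD2- cells. DHS_FCM_7 had 170, 462 and 857 CPM in GFP+ and 1552, 3282 and 6282 CPM in input libraries (lowest, median and highest). DHS_FCM_3 had 3.69, 246 and 311 CPM in GFP+ and 417, 855 and 1102 CPM in input libraries. DHS_FCM_8 overlapped, at 7.45, 837 and 3226 CPM against 575, 2757 and 8425 CPM. Their log2 changes were -0.83 ± 0.64, 0.06 ± 0.99 and 0.52 ± 0.89 (SE, edgeR), with adjusted p of 0.750, 0.977 and 0.940.

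DHS_FCM_1 varied widely between libraries of one group. In the 5 smaller mef2-CD2- inputs it stood at 0.0603, 39.6, 109, 18701 and 19584 CPM, and the mef2-CD2+/GFP+ library held 14934 CPM, inside that range. In the twi libraries 12910 of its reads lay at its start and 120 at its end, whereas the duf libraries had 58606 and 79227. DHS_FCM_5 had 3 reads over the 3 mef2-CD2-/GFP+ libraries and 15355 over the inputs, a CPM ratio of input to GFP+ of 4894 with a counting interval of 1675 to 23732. One of those inputs was at 0.116 CPM, close to the highest GFP+ library at 0.115 CPM, and the region did not pass the filter on low counts there, so it was not tested.

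The difference in enrichment between CD2+ and CD2- cells of one driver was tested in separate fits of the same kind. Each held all GFP+ and input groups of 1 driver. No member passed the threshold for twi (25 tested), mef2 (26 tested) or duf (47 tested), beside 0%, 0% and 0% of all regions called higher and 0%, 0.433% and 0% called lower. For mef2 and duf the CD2+ arm is the 1 pooled CD2+/GFP+ library set against smaller CD2- inputs, so these differences set that library's ratio beside the ratio of the CD2- cells. Without adjustment edgeR found 1, 6 and 4 members at p under 0.05, beside 10.4%, 16% and 6.98% of all regions in either direction. DESeq2 called 1 member lower for twi (3.32% of all regions lower and 2.37% higher), 1 higher and 3 lower for mef2 (6.49% of all regions in each direction), and 9 lower for duf, 19.1% of the members beside 19.1% of all regions (0.233% higher). The smallest adjusted p of a member was 0.330 for twi, 0.206 for mef2 and 0.337 for duf. The last was that of DHS_FC_19, with a fitted log2 difference of -6.30 ± 1.91 (SE, edgeR) between the lone duf:CD2+/GFP+ library's ratio and that of duf:CD2- cells, which did not pass the threshold. For DHS_FCM_4 the difference was -1.54 ± 1.21 (SE, edgeR, adjusted p = 0.794) and for DHS_FC_30 it was -0.92 ± 3.01 (SE, edgeR, adjusted p = 0.979). The most positive and most negative differences were 9.22 ± 4.96 for DHS_FC_17 and -13.56 ± 5.29 for DHS_FC_7 in twi, 13.12 ± 4.46 for DHS_FCM_9 and -13.67 ± 6.84 for DHS_FC_33 in mef2, and 4.73 ± 3.35 for DHS_FC_42 and -12.38 ± 5.44 for DHS_FCM_1 in duf (SE, edgeR, adjusted p from 0.238 to 0.742). With total reads as the scale, the median move of these differences over all regions tested was -0.39 (twi), 1.90 (mef2) and 1.24 (duf).

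GC content and log2 change were not closely related among the members tested. Pearson's r across members ran from -0.27 in duf:CD2- cells (47 members) to 0.11 in mef2-CD2+ cells (26 members). Members share libraries and, where they overlap, bases, so these are descriptions only.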

How the data were processed

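The 42 deposited tables, 1 per library, hold 491 regions each. The submitters' processing notes name CASAVA 1.8 and build dm3. The version of the aligner was not stated. The main value is the deposited total per region, an expected count that need not be whole, and it was rounded. The authors' deposited start and end counts per region were used as an alternative, and the deposited GC fraction as a description. Some regions have more than 1 line in a file, and their totals were summed.

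Tests used edgeR 4.0.16 in R 4.3.3 (TMM, filterByExpr, quasi-likelihood, all regions, groups of 1 comparison, or of 1 driver for differences in enrichment), and DESeq2 1.42.0 as an alternative, with Benjamini-Hochberg adjustment. The scripts were tested on simulated data. CPM are per 1000000 reads over all regions. Depth was 15601850 to 30671354 reads per library. Same-numbered GFP+ and input libraries deviated together. The correlations of deviations from group means were 0.17 to 0.40 in both twi populations and in duf:CD2- cells, and 0.07 to 0.21 in mef2-CD2- cells. In each pair the correlation exceeded the highest one with another replicate number. The margin was narrow for mef2-CD2- replicate 3 (0.11 beside 0.08) and duf:CD2- replicate 6 (0.30 beside 0.25). No 2 libraries of a group agreed within sampling noise.

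Alternatives were size factors, total reads, filters, end reads, leaving out each library, the replicate number and the lane as blocks, and all CD2- inputs as control. The members and lists were chosen with earlier results of these data known. Named members were those past the threshold, all DHS_FCM, the 3 most abundant DHS_FC per GFP+ population, the 2 most positive and 2 most negative changes per comparison and members overlapping another region. Members named for separation, end reads, an unadjusted p or a DESeq2 call were chosen after their values were seen. No sequences are printed, since no genome of build dm3 was used here.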

Additional observations from a re-analysis of the deposited data

Results flagged for a closer look

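Single libraries stood far from the rest of their group in 13 of 66 region and group pairs examined (19 members, groups of 5 or 6 libraries). The cutoff on the gap to the next library would flag about 1 pair in 20 if the values were normally distributed. CPM within a group were often far from that, so the number expected by chance is not known. Among the called members, DHS_FC_30 had 2341 CPM in duf:CD2-/GFP+ replicate 1, with the next library at 875 CPM. DHS_FC_15 had 2504 CPM in duf:CD2-/GFP+ replicate 3 (next 892) and 3553 CPM in duf:CD2- input replicate 4 (next 2312). DHS_FC_45 stood high in 3 groups, at 26941 CPM in smaller mef2-CD2- input replicate 5 (next 6463), 1170 CPM in duf:CD2-/GFP+ replicate 6 (next 274) and 6345 CPM in smaller duf:CD2- input replicate 2 (next 583).

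DHS_FC_10 had 18789 CPM in smaller mef2-CD2- input replicate 3 (next 186), and DHS_FC_23 was low, at 2367 CPM, in smaller duf:CD2- input replicate 5 (next 8103). DHS_FCM_1 had 1152 CPM in duf:CD2-/GFP+ replicate 6 (next 124). DHS_FCM_3 was low in the same library, at 3.69 CPM (next 202), and high in smaller duf:CD2- input replicate 5, at 3088 CPM (next 940). DHS_FCM_5 had 9671 CPM in smaller mef2-CD2- input replicate 1 (next 15.9) and 8483 CPM in duf:CD2- input replicate 2 (next 4113).

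Another 5 members lay above every input in one population and below every input in another after TMM scaling. The share of all regions with such opposite positions was not counted, so the pattern is not shown to be particular to the members. DHS_FC_33 had a log2 change of 10.56 in mef2-CD2- and -2.88 in mef2-CD2+ cells, and the difference had an adjusted p of 0.338 (edgeR). DHS_FC_32 had 1.16 in twi-CD2- and -6.00 in mef2-CD2+ cells, and DHS_FCM_6 had 1.39 in twi-CD2+ and -6.38 in mef2-CD2+ cells. DHS_FC_49 had -8.64 in twi-CD2- and 1.37 in mef2-CD2+ cells, and DHS_FCM_9 had -8.35 and 1.66 in the same populations. Differences between drivers were not tested, and the mef2-CD2+ side is 1 library in each case.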

How the results depend on the processing

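The 3 duf:CD2- calls were the only member calls of the edgeR tests, and none of them was called with total reads as the scale or with the lane as a block. With total reads, 0 members were higher and 13 lower in duf:CD2- cells. With the lane as a block 0 were higher, beside 4.25% of all regions, although the log2 changes of DHS_FCM_4, DHS_FC_19 and DHS_FC_30 were 3.58, 3.00 and 4.15, close to the 3.03, 3.05 and 3.95 without it. Leaving out 1 library at a time, 2 to 3 members were higher and 0 to 1 lower (1 without duf:CD2-/GFP+ replicate 2). Total reads also gave 1 member lower in twi-CD2+ (4.35% of members, beside 2.05% of all regions) and 3 in mef2-CD2- cells (14.3%, beside 9.29%). Members called lower by DESeq2 numbered 3 (twi-CD2+), 4 (twi-CD2-), 2 (mef2-CD2-), 7 (duf:CD2+) and 1 (duf:CD2-). For the differences it called 1 lower for twi, 1 higher and 3 lower for mef2 and 9 lower for duf. With all CD2- inputs of the driver as control, 3 members were lower for mef2-CD2+ cells, 1 for duf:CD2+ cells (2.13% of members, beside 0.701% of all regions). The direction turned for DHS_FCM_6 in twi-CD2+ (-0.15) and DHS_FC_32 in twi-CD2- cells (-0.15) with total reads, for DHS_FCM_9 in mef2-CD2+ cells with all CD2- inputs (-4.13), and for the twi differences of DHS_FC_17 without twi-CD2+/GFP+ replicate 1 (-5.33, range over left-out libraries up to 14.44) and DHS_FC_7 without twi-CD2-/GFP+ replicate 2 (0.74, range down to -17.89). The causes were not tested. With the replicate number as a block, 2 members stayed higher in duf:CD2- cells and 0 were called in twi-CD2+, twi-CD2- or mef2-CD2- cells, as without it. The shares of all regions called with this block, or with 1 library left out, were not counted. Whether the members kept their calls more or less often than other regions is therefore not shown. The shares of reads were also recomputed from end reads alone, an alternative chosen after seeing the data. Of 24 values, 6 were flagged as moved. For groups with replicates the flag meant a move of at least the replicate SD. The values of the lone CD2+/GFP+ libraries have no SD and were flagged whatever the size of the move, so their flags carry no information. Members at a few reads in GFP+ libraries, and the lone CD2+/GFP+ libraries, limit what the tests could call.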
